A study of Drosophila melanogaster with 3 samples.

Results

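The intron sites near transcription starts are the bound regions whose summit lay more than 500 bp and up to 3000 bp from the nearest annotated transcript start, inside a transcript and in no annotated exon. They were 1165 of the 6420 regions of the optimal set (18.1%, exact binomial 95% interval 17.2 to 19.1), which is the list the authors kept from the pooled calls by a threshold on reproducibility. Within the optimal set the rule used position only. The set itself was chosen by strength and reproducibility, so high signal and replicate support of the members are partly fixed by that choice, while intron number and sequence entered neither. Chromatin immunoprecipitation and sequencing was done on whole Drosophila melanogaster embryos of both sexes, 0 to 16 h old, from a transgenic line that stably expresses CG4424 with GFP fused at its C-terminal end, and the antibody recognised GFP. The 3 biological replicates all carry this fusion, no treatment is named, and together they form 1 group, so the series asks where the tagged protein sat. Whole embryos mix all cell types, 1 transgenic line was used, and whether untagged CG4424 was also present is not given in the labels.

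CG4424 encodes a zinc finger protein. Introns of fly developmental genes often hold enhancers, short stretches of DNA that transcription factors bind to raise or lower transcription, and the first intron, which lies just behind the promoter, is a common place for them. Many fly genes have several alternative starts, so sequence upstream of one start can lie inside an intron of a transcript that begins farther away. A chromatin immunoprecipitation peak marks DNA that was near the tagged protein, whether touched directly or through partner proteins, and the summit is the position of highest signal within it.

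The windows below show what the 6 strongest intron sites outside the right arm of chromosome 2 look like, because these sites lead the ranking by signal. Each window reaches 50 bp to either side of the summit on the forward strand of dm6, with sequence from the RefSeq Release 6 assembly. Capitals mark runs of at least 6 consecutive A or T letters, since summit windows as a whole were richer in A and T than windows 500 bp lower. The window at Mob2 (chr3L:11553575-11553675) lies in its first intron, that at ush (chr2L:481006-481106) in the first intron, and that at CG11050 (chr2L:6612663-6612763) in the second. The windows at tna (chr3L:10856812-10856912), Lk6 (chr3R:11760998-11761098) and CG32772 (chrX:4910302-4910402) lie in first introns.
Mob2: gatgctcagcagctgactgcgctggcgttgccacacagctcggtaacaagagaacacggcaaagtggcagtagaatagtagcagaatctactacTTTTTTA
ush: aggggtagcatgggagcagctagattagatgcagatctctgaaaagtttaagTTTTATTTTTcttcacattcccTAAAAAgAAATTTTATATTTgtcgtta
CG11050: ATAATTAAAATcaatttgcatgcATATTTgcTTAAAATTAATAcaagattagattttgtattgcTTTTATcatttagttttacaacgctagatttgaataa
tna: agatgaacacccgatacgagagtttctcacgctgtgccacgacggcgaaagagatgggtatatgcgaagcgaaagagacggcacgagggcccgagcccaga
Lk6: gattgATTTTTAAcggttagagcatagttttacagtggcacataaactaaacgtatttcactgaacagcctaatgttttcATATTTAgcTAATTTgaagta
CG32772: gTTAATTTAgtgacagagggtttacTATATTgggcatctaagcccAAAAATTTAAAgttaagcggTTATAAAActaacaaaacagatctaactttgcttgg

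These 6 windows were not alike. A and T made up 79.2% of the window at CG11050, 69.3% at Lk6, 67.3% at both ush and CG32772, 51.5% at Mob2 and 42.6% at tna. The tna window holds no run of 6 such letters, and the Mob2 window holds 1 run at its edge. Over all members, 95.9% of summit windows held such a run and 26.8% of their bases lay in one. In windows centred 500 bp lower on the same chromosome, called flanks here, 78.7% held a run and 14.2% of bases lay in one. Flanks were not limited to intron sequence. Windows tiled every 500 bp along intron sequence at this distance from a start lay between, with 85.5% and 18.2%. Optimal summits within 500 bp of a start resembled the members, with 92.4% and 26.6%.

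The next windows show 2 of the 3 strongest members outside that arm that hold ATACTA on either strand, which was the hexamer with the highest ratio of summit to flank among optimal regions that are not intron sites near starts. Capitals mark the hexamer. They lie in the first introns of CG13894 (chr3L:696898-696998) and CG1737 (chrX:11351490-11351590).
CG13894: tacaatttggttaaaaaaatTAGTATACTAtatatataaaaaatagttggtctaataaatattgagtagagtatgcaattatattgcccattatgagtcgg
CG1737: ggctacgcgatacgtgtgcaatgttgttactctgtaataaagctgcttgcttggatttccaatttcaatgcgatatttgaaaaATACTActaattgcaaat

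The last set is every member window outside that arm with the palindrome TATCGATA, a sequence bound by the promoter factors DREF and BEAF-32. The palindrome was present in 3.83% of the windows at promoters of the optimal set. Capitals mark the palindrome. The sites lie in introns of Stt3A (chrX:21053278-21053378), a subunit of the oligosaccharyltransferase complex, bif (chrX:11681580-11681680), an actin-binding protein, and CG2201 (chr2L:21619288-21619388). Their signals were 491.6, 318.6 and 276.2, and these 3 windows were all that the 1165 members contained.
Stt3A: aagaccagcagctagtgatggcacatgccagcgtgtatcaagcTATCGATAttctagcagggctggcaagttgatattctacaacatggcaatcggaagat
bif: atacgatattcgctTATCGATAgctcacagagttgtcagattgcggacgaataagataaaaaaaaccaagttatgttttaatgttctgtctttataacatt
CG2201: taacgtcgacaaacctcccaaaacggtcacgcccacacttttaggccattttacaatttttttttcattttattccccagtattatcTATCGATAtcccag

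Each replicate has its own relaxed list, of 22198, 30000 and 29796 regions for replicates 1, 2 and 3, and read totals were left aside, so depth is unknown. Replicate values below come from the 6420 strongest regions of each list, placed by the same rule. The 21288 regions of the pooled list outside the optimal set are called lower-ranked. Other optimal summits lay in promoters, within 500 bp of a start (3004), in introns beyond 3000 bp (1085, called far introns), in intergenic sequence (990) and in exons (176). The near introns held 18.3% ± 0.960 of the strongest regions (SD, n = 3) and 18.7% of the lower-ranked ones. Differences between classes were tested over replicates by flipping their signs, an exact permutation test, two-sided, whose smallest p with 3 replicates is 0.25. No difference below can therefore pass a usual significance threshold, and each is given with its spread and the number of replicates that show it. The optimal set was drawn from the same replicates, so a direction shared with them is no independent check.

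First introns held most of the members. A summit lay in the first intron of at least 1 transcript in 929 of 1165 sites (79.7%, exact 95% interval 77.3 to 82.0), and in later introns only in 236 sites. Of the 929, 602 sites were in a first intron of every transcript that spans them and 327 were in a first intron of some transcripts and a later intron of others. First introns make up 61.3% of the 16.8 Mb of intron sequence at this distance from a start, so the share of sites exceeded that of sequence by 18.5 percentage points. The shares were 80.2%, 78.6% and 79.7% in replicates 1, 2 and 3, and the excess was 18.3 ± 0.822 points (SD, n = 3; exact p = 0.25, adjusted over 7 planned comparisons 0.292). All 3 replicates lay close together and far above the share of sequence. The lower-ranked regions had 72.3% in first introns.

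Per Mb of sequence, the members numbered 90.4 in first introns and 36.3 in later ones, a ratio of 2.49. The ratio was 2.57, 2.33 and 2.48 in the 3 replicates, a mean of 2.46 ± 0.123 (SD, n = 3). It was 1.65 for lower-ranked regions. First introns were also the denser in far introns, with 48.0 summits per Mb against 20.4 and a ratio of 2.35, so the excess was not limited to the neighbourhood of starts. The ratio of near introns exceeded that of far introns by 0.0785 ± 0.0794 (SD, n = 3; exact p = 0.25), a difference of the size of the replicate spread.

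Within 2000 bp of a start, the contrast between first and later introns was larger on the downstream side. Up to 1000 bp from the nearest start the ratio of their densities was 3.96 downstream and 1.59 upstream. From there to 2000 bp it was 4.18 and 1.61. Over the whole range up to 3000 bp, first introns downstream had 89.5 sites per Mb and later introns 25.3, a ratio of 3.54. Upstream, the densities over that range were 93.0 and 48.7, a ratio of 1.91. Summed over all distances, first introns were about as dense on either side, and later introns differed between the sides. Up to 1000 bp, however, first introns had 129.0 per Mb upstream and 104.5 downstream. Over the whole range the ratio was larger downstream in all 3 replicates, by 1.48 ± 0.0483 (SD, n = 3; exact p = 0.25), a comparison chosen after the values were seen. The contrast between the sides did not hold beyond 2000 bp. There the ratio was 2.37 downstream and 2.81 upstream (replicate means 2.32 ± 0.275 and 2.37 ± 0.243, SD, n = 3). Later introns had 27.2 and 27.0 sites per Mb there.

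**Figure D1:**
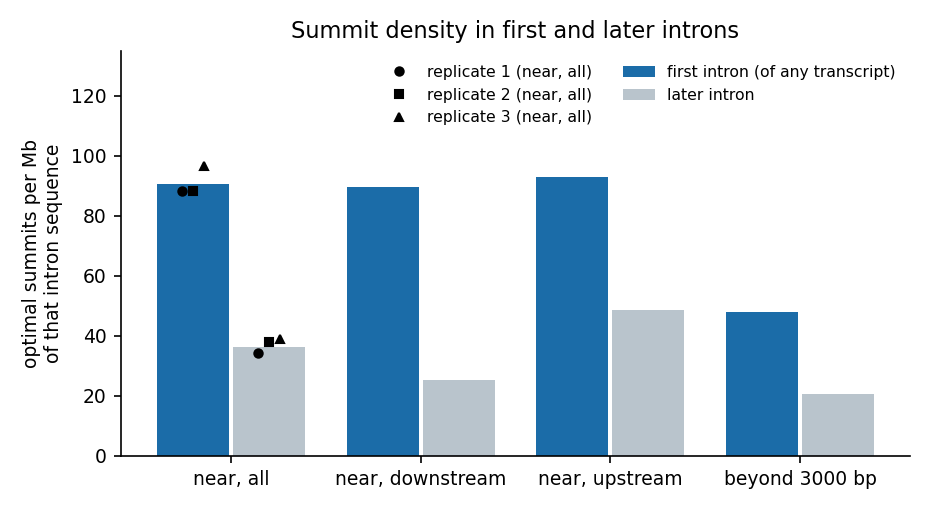
Summits per Mb of intron sequence for first introns (blue) and later introns (grey), over all near introns, their downstream and upstream sides, and introns beyond 3000 bp. Bars are the optimal set and black symbols are the 3 replicates for all near introns; first introns stand at 90.4 and later introns at 36.3 per Mb there.

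The sites followed the intron sequence in their side of the start. There were 757 sites downstream of the nearest start (65.0%, exact 95% interval 62.2 to 67.7) and 408 upstream, and 65.2% of the intron sequence at this distance lies downstream. The replicate shares were 64.6%, 64.1% and 65.1%, and the mean difference from sequence was -0.572 ± 0.471 points (SD, n = 3; exact p = 0.25). With the lower limit moved out to 1000 bp, the downstream share exceeded that of sequence by 2.93 points, so this balance rests on the sites closest to starts.

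Density by distance showed where those sites were. From just over 500 bp to 750 bp upstream of a start, 117 sites gave 133.1 per Mb, with 121.8, 120.6 and 141.1 in the replicates. The next 250 bp upstream had 77.3 per Mb, and beyond 2000 bp upstream the bins ran from 37.4 to 63.2. Downstream, density was nearly level at 81.6 to 87.5 per Mb out to 1500 bp, and was 43.0 in the last bin. In the nearest bins the upstream density exceeded the downstream one by 39.2 ± 7.07 per Mb (SD, n = 3; exact p = 0.25), in all 3 replicates, and the bins were compared after their values were seen. Lower-ranked regions in the same bins had 281.0 per Mb upstream and 277.9 downstream.

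**Figure D2:**
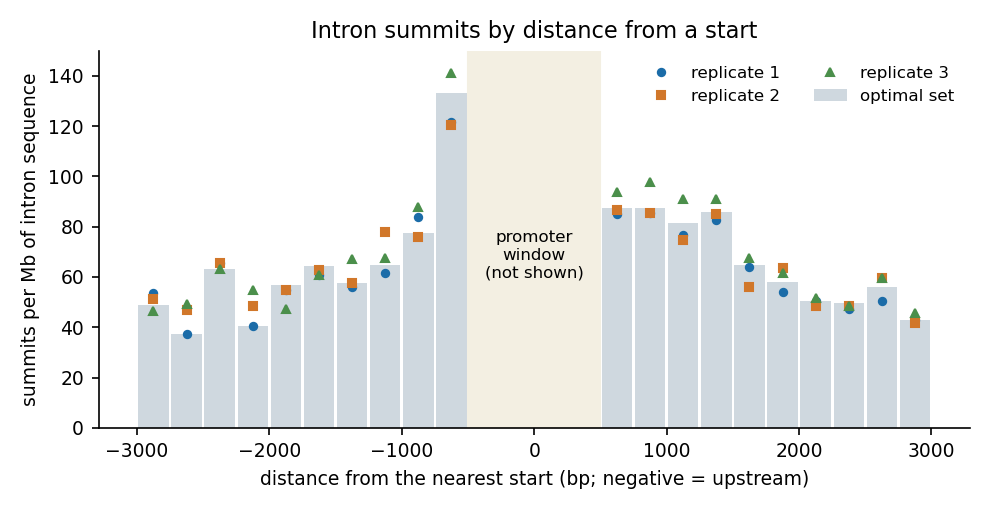
Summits per Mb of intron sequence in bins of 250 bp by distance from the nearest start, negative values being upstream; bars are the optimal set and symbols the 3 replicates. The nearest upstream bin stands at 133.1 per Mb, while the first 4 downstream bins lie between 81.6 and 87.5.

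In most cases the nearest start belonged to the gene that holds the site. This was so for 931 sites (79.9%), of which 671 lay downstream of that start and 260 upstream of it, inside an intron of a longer transcript of the same gene. For the other 234 sites the nearest start was that of a different gene, 86 downstream and 148 upstream. The intron around a site was long, with a median length of 6626 bp, and the nearest exon edge was a median of 1062 bp away. Sites upstream of a start lay in longer introns (median 10885 bp) than sites downstream (median 4754 bp).

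The members' signal, a value of the authors' region caller whose scale is not stated, was that of an average optimal region. The median was 320.5, with quartiles of 232.3 and 503.2 and a range from 186.2 to 7172, beside a median of 318.4 over all optimal regions. Promoter regions had a median of 341.7 and far introns one of 296.6. In replicate 1 the medians were 85.2 for near introns, 92.6 for promoters and 78.5 for far introns. The order was the same in replicate 2 (133.2, 137.7 and 123.7) and in replicate 3 (107.3, 116.1 and 99.96), so near introns stood between the other classes each time.

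On the log2 scale, near introns differed from promoters by -0.09 ± 0.04 and from far introns by 0.11 ± 0.01 (SD over n = 3 replicates; exact p = 0.25 for each, adjusted 0.292). These are small steps, of 0.938-fold and 1.08-fold in the optimal set. Of the members, 107 (9.18%) were among the 642 strongest optimal regions, beside 13.7% of promoters and 4.70% of far introns. First-intron sites had a median of 325.1 and later-intron sites one of 307.4. In the replicates first introns exceeded later ones 1.04-fold, 1.15-fold and 1.09-fold, 0.13 ± 0.07 on the log2 scale (SD, n = 3; exact p = 0.25, adjusted 0.292). Among the 3210 strongest regions the replicate mean was -0.0071, and replicate 1 was negative, so this order did not hold there. Upstream and downstream sites had medians of 322.9 and 318.6, and the ratio of the sides was above 1 in replicates 1 and 3 and below 1 in replicate 2.

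**Figure D3:**
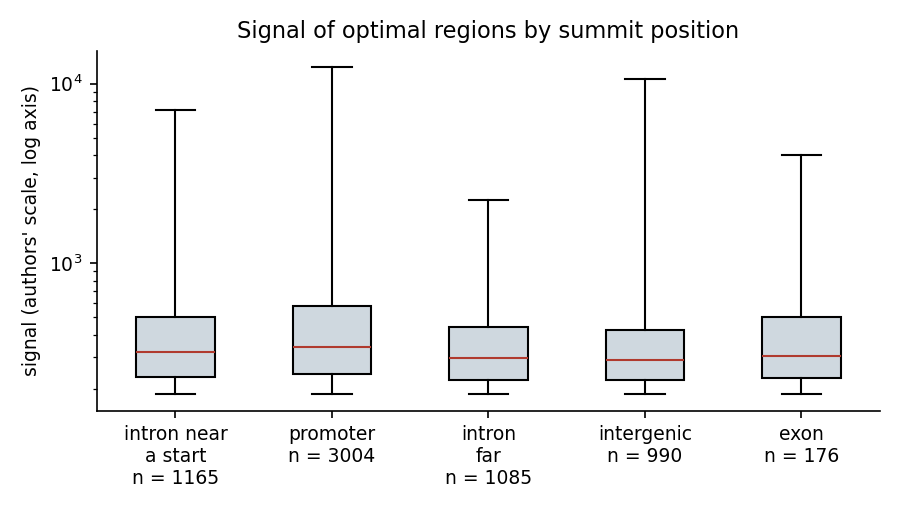
Signal of the optimal regions on the authors' scale (log axis) by position of the summit; boxes span the quartiles, the red line is the median and whiskers reach the lowest and highest values. Boxes overlap almost entirely, with medians of 320.5 for near introns, 341.7 for promoters and 296.6 for far introns.

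The strongest intron site lay in the first intron of Mob2, which encodes a cofactor of kinases. Its summit at position 11553625 of chromosome 3L, 513 bp upstream of a Mob2 start, had a signal of 7172 and ranked 4 in the optimal set. Its region ranked 7, 3 and 4 in replicates 1, 2 and 3. That region runs from position 11552991 to 11554830 and takes in the Mob2 start, so these ranks describe more than this summit. Further summits in it, 719 and 1462 bp upstream of the start, had signals of 1470 and 572.7. The site in ush, which encodes a cofactor of GATA transcription factors, had a signal of 5325 and ranked 8, 7 and 5. It lay in the first intron of ush, 1368 bp upstream of a start of cbt, the gene of a zinc finger transcription factor. The regions of both sites were thus among the 10 highest of every replicate.

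The other sites among the 12 strongest were held by genes of several kinds. In tna, whose mutations interact with those of the Brahma complex, a summit 1027 bp upstream of a start had a signal of 4128. It shared its region with the strongest summit of the whole set, a promoter summit of signal 12375, so the ranks of that region in the replicates, 2, 1 and 1, describe both. The site in Lk6, which encodes a kinase of the translation factor eIF4E, had 3338 and ranked 17, 21 and 21. The site in HmgZ, which encodes a chromatin protein with an HMG box, had 3152 and ranked 16, 35 and 23.

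Regulators of chromatin and transcription were among the rest of these 12. The site in the second intron of Trl, the gene of GAGA factor, had a signal of 3061 and ranked 29, 29 and 24 in the replicates. The site in Tlk, the gene of the tousled-like kinase, had 2798 and ranked 31, 34 and 36. The site in Adf1, which encodes a transcription factor with a MADF domain, had 2319 and ranked 48, 74 and 54. CG11050 (4380), CG32772 (3286), CG9663 (2593) and CG12769 (2279) held the remaining ones. Of the 12, 7 lay upstream of the nearest start and 5 downstream, and 10 lay in a first intron.

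Replicates found the members about as often as other optimal regions. The 6420 strongest regions of replicates 1, 2 and 3 overlapped 88.2%, 90.9% and 92.1% of them, a mean of 90.4% ± 2.02 (SD, n = 3). Promoters had 91.0% ± 2.06 and far introns 87.8% ± 3.89. The difference from promoters was negative in replicates 1 and 2 and positive in replicate 3 (mean -0.637 ± 3.27 points, SD, n = 3; exact p = 1.0). The difference from far introns was positive in all 3 (2.61 ± 1.93 points, SD, n = 3; exact p = 0.25, adjusted 0.292). All 3 replicates supported 897 members (77.0%), 204 were supported by 2 of them (17.5%), 60 by 1 (5.15%) and 4 by none (0.343%). Over all optimal regions these shares were nearly the same, at 76.2%, 17.3%, 6.21% and 0.296%. With whole replicate lists in place of the strongest regions, 1156 members (99.2%) were overlapped in all 3, and none was without a replicate. The share overlapped in all 3 was also 99.2% over all optimal regions.

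Signals of single members kept much of their order from replicate to replicate, and members are not independent points. Spearman's rank correlation was 0.853 for replicates 1 and 2 over 1157 sites, 0.859 for 1 and 3 over 1158, and 0.870 for 2 and 3 over 1161. All replicates were called against the same control, per the deposited notes. First-intron sites were supported by all 3 replicates in 78.4% of cases and later-intron sites in 71.6%.

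The limits of distance cut through a continuous range. Just inside the lower limit were sites in CG6891 (502 bp, signal 413.4), capu, which encodes a formin (503 bp, 267.5), and CG42336 (503 bp, 229.3). Intron summits just outside it were in ush (498 bp, 454.3) and in Eip63F-1, which encodes a calcium-binding protein (497 bp, 392.7). Just inside the upper limit were sites in spz3, a gene of the Spätzle family (2996 bp, 206.7), CHES-1-like (2995 bp, 230.4) and CG32066 (2987 bp, 377.2). Just outside it were summits in Mnt, a partner of Max (signal 460.9), tna (3002 bp, 219.7) and trx, a trithorax group methyltransferase (3027 bp, 1647).

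The members were spread over many genes. There were 792 host genes, 775 of them protein-coding, which is 8.53% of the 9085 protein-coding genes with any intron sequence at this distance. A single site was found in 567 hosts. The 225 hosts with several held 598 sites (51.3%), and 17 hosts had 5 or more. Some members have overlapping intervals, and joining these left 1114 regions, with several in 198 hosts and 1 in 594. A host had a median of 4.30 kb of such intron sequence and an eligible gene without a site had 0.359 kb, so long introns were favoured by the rule itself. There were 237 hosts that also held a far intron site.

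The gene with most sites was shn, which encodes a large zinc finger protein of the Dpp pathway. Its 12 sites had signals from 192.8 to 821.4 with a median of 269.1, 9 of them lay in first introns, and 9 were supported by all 3 replicates. In all, shn had 5.42 sites per 10 kb of eligible intron sequence and no optimal summit in the promoter window of any of its 5 starts. Overlapping intervals joined, the 12 summits of shn made 9 regions, and the 10 summits of CG1677, the gene with the next highest number, made 9 as well.

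CG1677 came next with 10 sites, all in its second intron and none nearest to its own start. Other genes lie inside or beside that long intron. The sites nearest to brk, which encodes a repressor of Dpp target genes, lay 545, 752 and 1984 bp upstream of its start with signals of 407.0, 1101 and 382.7. Further sites lay upstream of unc-119 (signals 722.2, 501.8 and 500.7), CBP (954.5, 361.5 and 193.5) and CG42780 (323.3). All 10 were upstream of the nearest start, and 9 were supported by all 3 replicates.

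Tlk and CHES-1-like, a forkhead factor, had 8 sites each, all in first introns. Those of Tlk had signals from 200.8 to 2798 and were divided 4 and 4 between the sides of the nearest start. Those of CHES-1-like ran from 212.6 to 1123, at 7.63 sites per 10 kb. The 7 sites of tna ran from 245.3 to 4128 with a median of 278.9, so its strongest site stood far above its other 6. Svil, which encodes an actin-binding protein related to supervillin, also had 7 sites, from 192.8 to 747.7, at 1.38 per 10 kb of a gene with 16 distinct starts.

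Hosts were more often genes whose own start was occupied. Of 775 protein-coding hosts, 389 had an optimal summit at a promoter of their own (50.2%, exact 95% interval 46.6 to 53.8), against 2277 of 8310 eligible genes without an intron site (27.4%, 26.4 to 28.4). The same order held among genes with up to 2000 bp of eligible intron sequence (40.6% against 27.6%) and among those with the most, over 10 kb (57.4% against 27.9%). These intervals cover counting error over genes only, and no test over replicates was made. Some genes share a start region with a neighbour, so a summit can count for both. A gene counted as occupied if any of its starts had a summit within 500 bp, so genes with more starts had more chances. Hosts had a median of 2 distinct starts and eligible genes without a site had 1. The comparison was not adjusted for this.

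Members often had another summit nearby. The next optimal summit lay a median of 1987 bp from a member, and 315 members (27.0%) had another within 1000 bp. The median was 3273 bp for promoter summits and 3943 bp for far introns, with 24.5% and 15.9% within 1000 bp. The distance rule sets part of this, since far intron summits lie more than 3000 bp from every start. A promoter summit was the next one, within 3000 bp, for 25.4% of members and for no far intron, and the spacing of the classes was not tested. For 39.3% of members the next summit was another near intron site, and for 42.6% it was at a promoter. By chromosome arm, density ran from 57.3 sites per Mb of eligible intron sequence on 2L to 82.3 on X. Chromosome 4 had 1 site in 0.200 Mb. In the replicates X had 78.7, 83.3 and 85.4 per Mb, and 2L had 56.3, 59.6 and 60.9.

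Gene lists describe which pathways the hosts belong to. A site counts for its host even where the nearest start is another gene's, as for the strongest sites in drk, Hr4, EcR and fra. Over all protein-coding genes there were 6.61 sites per 100 kb of eligible intron sequence and 8.53% of eligible genes were hosts. Of 18 lists, 16 had a higher share of hosts than this and 13 had more sites per 100 kb, or 9 when the gene with most sites was left out of each list. The lists differ widely in how much eligible intron sequence they hold, and no list was tested.

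The Dpp pathway, the fly branch of BMP signalling, had 5 hosts among 10 eligible genes, with 20 sites and 30.7 per 100 kb. Without shn the value was 18.6. The receptor tkv had 5 sites of 191.7 to 456.6, and the second receptor put had 1 of 310.5. The strongest site of the list was in Mad, the Smad that carries the signal to the nucleus, 662 bp upstream of a start, with a signal of 1173. Dad, the inhibitory Smad, had 1 of 199.6. The hosts were thus 2 receptors, 2 Smads and shn. None of the ligand genes listed was a host, but only 10 of the 14 listed genes were eligible. Over all eligible protein-coding genes 8.53% were hosts, so no host among a few ligand genes says little about them.

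The EGF and FGF receptor pathways had 9 hosts among 18 eligible genes and 19.1 sites per 100 kb, or 14.0 without pnt. The strongest was in edl, which encodes an antagonist of Ets factors, with a signal of 1523. Sites followed in drk, the adaptor that links receptors to Ras (874.5), aop, an Ets repressor (708.9), and ths, an FGF ligand (681.0). The activator pnt had 7 sites of 233.7 to 503.2, and 5 of them were in later introns.

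The list of corepressors, Polycomb and trithorax proteins had 7 hosts among 24 eligible genes and 22.8 sites per 100 kb, or 16.9 without tna. Beyond tna and Trl, sites lay in Sin3A, the scaffold of a histone deacetylase complex (727.5), and in ph-p, a subunit of a Polycomb complex (722.7). The Hippo pathway list, which included Mob2, had 4 hosts among 14 and 20.5 sites per 100 kb, or 13.6 without Mob2. Its other hosts were the upstream components ex (730.4) and kibra (407.4) and the kinase wts (206.8). Forkhead factors had 48.6 sites per 100 kb, of which CHES-1-like held 8 of 9 sites, and 12.5 without it. The other forkhead host was jumu (619.2).

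Nuclear receptors and cofactors of the ecdysone response had 7 hosts among 12 eligible genes and 10.3 sites per 100 kb. The leading ones were the receptor Hr4 (1340), the ecdysone receptor EcR (693.9), its coactivator tai (544.1) and the zinc finger factor br (422.5). The Wingless and Hedgehog list had 7 hosts among 19 and 9.10 sites per 100 kb, led by nkd, an inhibitor of Wingless signalling (639.1), rdx, an adaptor of Ci degradation (593.5), fz, a Frizzled receptor (448.9), and ptc, the Hedgehog receptor (375.0). The Notch list had 5 hosts among 14 and 9.15 per 100 kb. Its strongest sites lay in neur, a ubiquitin ligase for Notch ligands (678.1), mam, a coactivator (316.7), fng, a glycosyltransferase (272.6), and numb, an inhibitor (246.5).

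Transcription factors of the body plan and tissues gave mixed counts. Hox genes and cofactors had 3 hosts among 10, which were Abd-B with 3 sites of up to 772.7, Ubx (256.7) and lab (204.5). They had 7.57 sites per 100 kb, or 4.28 without Abd-B. Neural transcription factors had 4 among 13, namely grh (1125), zfh1 (1124), elav (474.1) and pros (211.3), at 8.52 per 100 kb. Without grh the value was 5.72, and all protein-coding genes had 6.61. The mesoderm, heart and GATA list had 3 among 15, with 9.84 per 100 kb, or 3.59 without ush. Beside ush they were GATAd (263.8) and Doc1 (253.0). Gap and pair-rule genes had no host among 11 eligible genes, which allows a share of up to 28.5% by the exact interval, and they offer 12.9 kb of eligible intron sequence.

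In sites per 100 kb, the following lists of structural and neuronal genes were near or under the value for all genes. Their shares of hosts were above the 8.53% of all eligible genes. These shares were 26.7% for polarity, 27.8% for muscle, 28.6% for axon guidance and 18.75% for ion channels. Cell polarity and junctions had 4 hosts among 15 eligible genes and 6.75 sites per 100 kb, in dlg1 (996.7), baz (283.3), crb (250.9) and pyd (222.6). Muscle structure and fusion had 5 among 18 and 5.24 per 100 kb, with kirre (1123), mbc (914.5), Zasp66 (382.1) and rols (377.4) in front. Without kirre the muscle value was 7.32, above that of all genes. Axon guidance and synaptic adhesion had 8 among 28 and 3.95 per 100 kb, led by the netrin receptor fra (821.9), Ten-a (731.8), the ligand NetB (420.7) and the receptor unc-5 (387.3). Ion channels had 3 among 16 and 2.85 per 100 kb, in KCNQ (1226), Shaw (264.2) and SK (210.0).

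The cytosolic ribosomal proteins had no host among 26 eligible genes of 88. Their introns are short and give 5.33 kb of eligible sequence in all, so a count of 0 limits the share of hosts only to 13.2% by the exact interval.

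Base composition differed between summits and flanks. A and T made up 68.0% of the summit windows and 57.3% of the flanks, and 949 of 1165 members (81.5%) were richer in A and T at the summit than in their own flank. The summit windows of the 3 replicates had 66.6%, 68.1% and 67.3%, and their flanks 57.6%, 57.6% and 57.7%, a difference of 9.72 ± 0.763 points (SD, n = 3; exact p = 0.25). The groups did not overlap. Windows tiled every 500 bp along the eligible intron sequence had 60.6%, between the summits and the flanks. Summit windows of lower-ranked regions had 62.1%.

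The peak of A and T was narrow and was shared with the other classes. Around the members it was 68.3% at the summit, 61.8% at 100 bp lower, 57.2% at 200 bp lower and 59.6% at 1000 bp lower. Far introns had 68.2% in summit windows and promoters had 65.8%, so members resembled far introns more closely. First and later introns had 68.0% and 68.3%, and upstream and downstream sites 68.1% and 68.0%. When members were divided by signal into 10 groups of nearly equal size, a split chosen after values were seen, the strongest group had 69.6% and the weakest 66.5%. The same order held in the replicates, with 67.6% and 65.3%, 69.8% and 65.6%, and 69.8% and 65.9%.

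**Figure D4:**
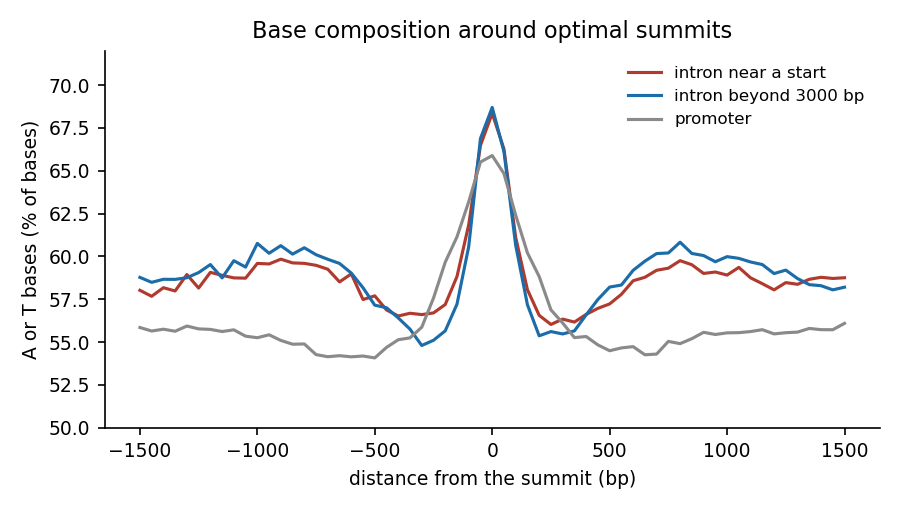
Share of A and T bases in windows along the genome around the summits of near introns (red), far introns (blue) and promoters (grey), with distance from the summit in bp and the vertical axis starting at 50. All 3 lines peak at the summit, at 68.3% for near introns, and the near intron line dips below its outer level on both sides near the summit.

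Consensus sequences of known factors were counted in the same windows on both strands. Of 27 sequences, 8 were found in more summit than flank windows in the optimal set and in all 3 replicates, 10 were found in fewer in the optimal set and all 3, and 9 were mixed. For each sequence of one direction throughout, the exact p was 0.25 and the value adjusted over the 27 was 0.375. The sequences with the widest excess at summits were made mainly of A and T, and summit windows were richer in A and T than flanks, a part in these counts that was not tested.

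The TATA box sequence TATAAA was found in 25.2% of summit windows and 9.61% of flanks, and in 14.3% of tiled windows. In the replicates the shares were 23.2%, 26.3% and 23.7% at summits and 9.92%, 10.3% and 9.96% in flanks, a difference of 14.3 ± 1.45 points (SD, n = 3). Promoters had it in 21.7% of windows and far introns in 24.6%. The homeodomain core TAATTA was found in 10.04% of summits and 6.70% of flanks (3.19 ± 0.927 points over replicates), and in 8.27% of tiled windows. Far introns had it in 9.49% of summit windows and promoters in 10.09%. The posterior Hox and Caudal sequence TTTATG was found in 14.5% and 11.6% (2.87 ± 0.878), and in 13.4% of tiled windows. For sites beyond 1000 bp its excess was 0.134 points. The forkhead sequence TGTTTAC was found in 3.61% and 1.55% (1.73 ± 0.935), and in 2.47% of tiled windows. Against the flank 500 bp higher its excess was 1.03 points, with a replicate mean of 0.488 and replicate 2 negative.

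Sequences of GAGA factor and of Polycomb recruitment were scarcer at the summits than in the flanks. Because flanks were placed by distance alone, some can lie in exons or promoters, and this was not adjusted for. The GAGA element GAGAG was found in 8.50% of summit windows, 17.7% of flanks and 11.2% of tiled windows, a difference of -8.25 ± 1.05 points over replicates (SD, n = 3). The Pleiohomeotic core GCCAT was found in 13.4% and 17.8% (-4.38 ± 1.64 points). The Ets core CCGGAA was found in 1.20% and 3.18%, and the Suppressor of Hairless sequence GTGGGAA in 0.773% and 2.83%. The flanks also exceeded the tiled windows in GAGAG, so the contrast came from both sides of it. This held for the Ets core and the Suppressor of Hairless sequence too. The Ets core was found in 2.27% of tiled windows and 2.66% of flanks 500 bp higher. For the Suppressor of Hairless sequence these shares were 1.36% and 1.63%. The summits lay below all of these values, by less than against the flanks.

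**Figure D5:**
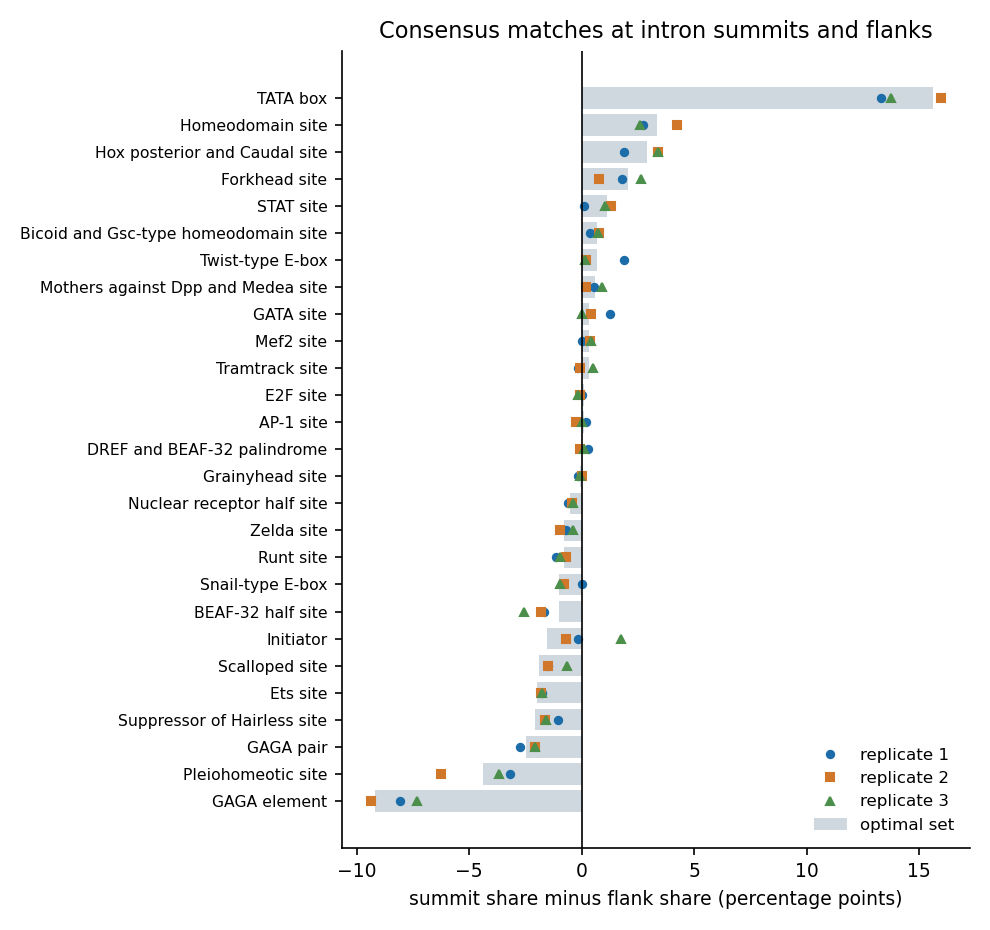
Share of summit windows minus share of flank windows holding each of 27 consensus sequences, in percentage points, at near intron sites; bars are the optimal set and symbols the 3 replicates. The TATA box stands farthest to the right at 15.6 points and the GAGA element farthest to the left at -9.18 points.

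The palindrome of the windows printed above was scarcer at near introns than at promoters in every replicate. TATCGATA was found in 3 of 1165 members (0.258%, exact 95% interval 0.0531 to 0.751), in as many flanks, and in 3.83% of promoter windows. The replicates had 0.354%, 0.174% and 0.241% at near introns and 3.83%, 3.69% and 3.01% at promoters. Near introns were lower in all 3, by a mean difference of -3.25 ± 0.422 points (SD, n = 3; exact p = 0.25), and the groups did not overlap. Its core TATCGA was found in 3.09% of members and 3.18% of their flanks, against 11.95% of promoters.

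Hexamers were ranked on the 5255 optimal regions that are not members, and the 10 leading ones were then counted in the members. Of these 10, 9 were more frequent at member summits than in flanks in all 3 replicates. The 10 were chosen for a high ratio in regions whose summits are also rich in A and T. The part of base composition in this count was not tested, and the same share over all 2080 hexamers is not given here. The first, ATACTA, was found in 8.07% of member summits and 2.66% of flanks, with 7.62%, 8.95% and 7.39% against 2.92%, 2.69% and 2.97% in the replicates. ATATTA was the most frequent at 22.5% and 6.87%. TTTAAA had 21.4% and 7.04%, TATTAA 20.3% and 8.41%, and AATATT 19.7% and 7.12%. The rarer CTAGTA had 2.83% and 0.687%, TACTAA 7.90% and 3.52%, CTAATA 7.73% and 3.43%, and TAGCTA 2.49% and 1.46%. The exception was TATCGA, the core of the palindrome, which ranked 784th of 2080 hexamers by the same ratio in the members.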

How the data were processed

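Binding was measured by chromatin immunoprecipitation with an anti-GFP antibody in 3 biological replicates of embryos with GFP-tagged CG4424, with chromatin sonicated to 200 to 800 bp, per the labels. The signal values were deposited by the authors in lists of regions called against a control alignment, per the deposited notes, and the optimal set is the part of the pooled list kept by a threshold on the irreproducible discovery rate. The aligner and caller behind them, not given in the sources used here, decide which regions are listed. Lists on dm3 were not used. Signal was compared within a list only. Read counts were not used, so depth is unknown and intervals cover counting error only.

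Summits were placed on dm6 against all transcript starts of Ensembl release 115, without transposable elements, on 2L, 2R, 3L, 3R, 4 and X. Every pooled region ended inside the RefSeq arm it was assigned to. A summit lies at the region's start plus the deposited offset, and some regions hold more than 1 summit, so the 1165 sites lie on 1161 intervals, which make 1114 regions where overlapping intervals are joined. The host is the gene whose intron holds the summit, protein-coding before other genes and then the gene of the nearest start. Eligible sequence is all intron sequence that meets the distance and exon rule. Overlap was at least 1 bp. Summit windows reached 50 bp to either side, and flanks were centred 500 bp lower, whatever sequence lay there. Replicates were compared by an exact sign-flip permutation test, two-sided, with Benjamini-Hochberg adjustment over 7 planned comparisons or 27 consensus sequences. Intervals are exact (Clopper-Pearson) at 95%.

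The members, gene lists, consensus sequences and alternatives were chosen with earlier results of these data known. Named hosts are those of the 12 strongest sites, the 6 with most sites, up to 4 of highest signal in each list and those of 3 sites inside each distance limit. Neighbouring genes and sites outside the limits, pnt, Dad and the hosts of the printed windows were named after their values were seen. 3 listed names were updated to the annotation's symbols, and 1 was not matched and not analysed here. 1 gene list and 1 sequence window are not reported here. Placement, overlap and sequence counting were tested on simulated data. Alternatives covered the upper part of the set, other distance limits, starts, overlaps, flanks and windows, and each replicate left out. Tables were computed with pandas 2.3.3 and numpy 2.4.6 in Python 3.11.15, intervals with scipy 1.17.1, and plots with matplotlib 3.10.9.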

Additional observations from a re-analysis of the deposited data

How the results depend on the processing

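Of 152 values recomputed on the optimal set under 15 alternatives, 140 kept their direction or stayed close, 10 changed sign and the 2 others are counts of sites under narrower sets. The first-intron excess stayed between 12.1 and 20.3 percentage points, and 19.1 to 19.9 with a replicate left out. Log2 differences of median signal in the optimal set ran from -0.13 to -0.04 against promoters, 0.05 to 0.13 against far introns and 0.03 to 0.15 for first against later introns. The last was not stable in the replicates, with a mean of -0.0071 in the 3210 strongest regions and replicate 1 at -0.0073 when only introns first in every transcript counted as first. The number of consensus sequences higher at summits in the optimal set and every replicate was 6 to 9 (main value 8). The downstream share minus that of sequence turned to 2.93 points with sites beyond 1000 bp only. The difference in replicate support from promoters had no stable sign. It was 0.213 points in the 3210 strongest regions, 0.20 with an overlap of at least 50% and 0.0579 with whole replicate lists. With the optimal set kept, an alternative chosen after seeing the data, it ran from -2.52 to 0.457 as each replicate was left out of the mean. Keeping only regions found by both other replicates fixes that share, so it gives no value. The difference in support from far introns turned to -0.133 points with whole lists, where nearly all regions are found. The GATA site was 0.343 points higher at summits, and -0.341 in the 3210 strongest, -0.443 within 2000 bp and -0.515 against the flank 500 bp higher. All replicates form 1 group, and each test compared classes or windows within a replicate. The Hox and Caudal excess of 2.92 points was 0.134 beyond 1000 bp, and the forkhead excess of 2.06 was 1.03 against the higher flank.

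With 3 replicates, no test here can go below 0.25. Read depth and control values were not used, and whole embryos give no cell type. First-intron membership depends on which transcripts are annotated, and a host gene is defined by position only. Sequence counts move with base composition, whose part was not tested.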
